A study of Homo sapiens with 16 samples.

Results

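The 8 genes described here encode the enzymes that write, copy and erase cytosine methylation: *DNMT1*, *UHRF1* and *HELLS*, *DNMT3A* and *DNMT3B*, and *TET1*, *TET2* and *TET3*. They were taken by name from the 60623 genes in the count files, a choice made with earlier results of these data known. RNA-Seq was done on MUTZ-3, a human acute myeloid leukemia (AML) line with inv(3), an inversion that places a *GATA2* enhancer next to *EVI1*, listed in the files as *MECOM*. All cells were grown with GM-CSF and medium conditioned by 5637 cells. The PARP inhibitor (PARPi) time course has 10 libraries: 1 of untreated cells (0 h) and 3 each of cells kept in the DMSO vehicle, in olaparib (10 µM) or in talazoparib (1 µM), taken after 12, 24 and 48 h. The *EVI1* knockdown has 6, taken on day 3 and day 6 from puromycin-selected cells that carried pLKO.1 with a non-targeting control hairpin (NTC), shEVI1-2531 or shEVI1-2532. Every condition has 1 library from this 1 line, so p-values rest on the spread across time points or days and not on replicate cultures. Part of this spread was borrowed from other genes, most of it for the shRNAs and all of it for the slopes with time. Both inhibitors share the DMSO libraries and both shRNAs share the NTC libraries, which makes their comparisons dependent.

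Methylation of cytosine in CpG dinucleotides is copied after each round of DNA replication and is one of the ways in which cells keep genes silent. DNMT1 methylates the new strand, UHRF1 binds the half-methylated site and brings DNMT1 to it, and HELLS is a chromatin remodeler that opens nucleosomal DNA for this step. DNMT3A and DNMT3B place new methyl groups, and the TET enzymes oxidise 5-methylcytosine as the first step of its removal. In myeloid cells, *DNMT3A* and *TET2* are known above all because both are recurrently mutated in AML and in clonal hematopoiesis.

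The genes lie on 5 chromosomes in GRCh38 as the files give it: *DNMT1* (ENSG00000130816) at chr19:10133345-10231286 on the minus strand and *UHRF1* (ENSG00000276043) at chr19:4903080-4962154 on the plus strand, *HELLS* (ENSG00000119969) at chr10:94501434-94613905 and *TET1* (ENSG00000138336) at chr10:68560337-68694487 on the plus strand, *DNMT3A* (ENSG00000119772) at chr2:25227855-25342590 on the minus strand and *TET3* (ENSG00000187605) at chr2:73986404-74108176 on the plus strand, *DNMT3B* (ENSG00000088305) at chr20:32762385-32809356 on the plus strand, and *TET2* (ENSG00000168769) at chr4:105145875-105279816 on the plus strand. RefSeq start sites of all 8 genes were matched by symbol, with 19 windows of 300 bases that run from 250 bases before to 50 after a start (GRCh38.p14). Words bound by E2F factors, which switch on genes at the entry into S phase, were searched on both strands as TTTCGCGC, TTTGGCGC, TTTCCCGC and TTTGCCGC, with overlapping matches counted separately. They were found in windows of 3 of the 8 genes, *DNMT1*, *UHRF1* and *HELLS*, which are the 3 maintenance genes, and in 3.99% of the 27305 genes with such windows. *HELLS* had 2 such words, and *UHRF1* had 1 in each of 2 of its 3 windows. The words TTTGAA and TTCGAA, the core of the cell cycle element that many G2/M genes carry, were found in windows of *DNMT3A* and *TET2*, and in 19.5% of all genes. The word GACAAGATA, bound by the first zinc finger domain of EVI1, was in none of the 19 windows and in 0.125% of all genes. The windows of the 3 maintenance genes with an E2F word are shown 5′ to 3′ on the strand of the gene. Capitals mark E2F words.
DNMT1, chr19:10194904-10195203, minus strand: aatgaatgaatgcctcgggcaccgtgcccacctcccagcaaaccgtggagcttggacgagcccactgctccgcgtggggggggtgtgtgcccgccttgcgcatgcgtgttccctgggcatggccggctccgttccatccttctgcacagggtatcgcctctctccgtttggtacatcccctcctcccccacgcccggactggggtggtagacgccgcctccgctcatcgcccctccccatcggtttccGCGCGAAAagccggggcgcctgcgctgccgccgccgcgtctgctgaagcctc
UHRF1 first start, chr19:4909251-4909550, plus strand: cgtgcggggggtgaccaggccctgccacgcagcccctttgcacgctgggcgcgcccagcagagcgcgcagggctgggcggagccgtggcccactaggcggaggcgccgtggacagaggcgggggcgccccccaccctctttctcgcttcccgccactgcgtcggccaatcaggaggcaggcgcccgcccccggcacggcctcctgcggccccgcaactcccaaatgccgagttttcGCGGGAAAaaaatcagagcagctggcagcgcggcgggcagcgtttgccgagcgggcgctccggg
UHRF1 second start, chr19:4909894-4910193, plus strand: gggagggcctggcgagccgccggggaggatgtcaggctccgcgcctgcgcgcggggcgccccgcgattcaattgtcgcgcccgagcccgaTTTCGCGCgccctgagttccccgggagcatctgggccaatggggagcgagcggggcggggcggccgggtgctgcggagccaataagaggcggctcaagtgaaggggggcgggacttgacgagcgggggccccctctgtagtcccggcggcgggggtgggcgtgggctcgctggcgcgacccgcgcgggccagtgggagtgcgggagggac
HELLS, chr10:94545538-94545837, plus strand: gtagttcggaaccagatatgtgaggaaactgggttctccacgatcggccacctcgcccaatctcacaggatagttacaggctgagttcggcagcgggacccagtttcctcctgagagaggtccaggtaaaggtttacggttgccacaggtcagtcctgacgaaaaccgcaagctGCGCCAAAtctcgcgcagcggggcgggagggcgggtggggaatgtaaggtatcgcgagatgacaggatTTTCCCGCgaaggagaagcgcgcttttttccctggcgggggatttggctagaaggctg

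These windows do not lie at the outer 5′ end of the gene as the count files give it. The windows shown start 36.3 kb inside the *DNMT1* span, 6.42 and 7.06 kb inside that of *UHRF1* and 44.4 kb inside that of *HELLS*, and the 1 window of *DNMT3B* starts 17.5 kb inside. The outer 5′ ends of these 4 genes were not searched, so the absence of a word in the *DNMT3B* window says nothing about its other starts. A match to a word describes these letters only and does not show that a factor binds there.

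Between 55999673 and 72681943 counts per library were assigned to genes under PARPi, and between 95523038 and 120716213 after knockdown. Levels are given as CPM, the counts of a gene scaled to library size, and a floor of 3 counts corresponds to 0.0249 to 0.0536 CPM. All 8 genes had at least 72 counts in every library and passed the filter on low counts in both experiments, where 17218 and 18606 genes were tested. The scaling used edgeR's TMM factors, which set the bulk of genes level between libraries. Scaled by library totals alone, the median gene was shifted by -0.31 on the log2 scale in shEVI1-2532 at day 6 and by -0.27 in talazoparib at 48 h, and the log2 ratio of *DNMT3A* in shEVI1-2532 at day 3 turned from 0.17 to -0.088. *MECOM*, the shRNA target, was at 40.6 and 37.2 CPM with NTC, at 13.2 and 17.5 with shEVI1-2531 and at 5.14 and 4.31 with shEVI1-2532, at day 3 and day 6. Its log2 fold change was -1.34 ± 0.19 (SE, adjusted p = 6.44e-04) with shEVI1-2531 and -3.04 ± 0.21 (SE, adjusted p = 7.95e-07) with shEVI1-2532. *PARP1*, the target of both compounds, had -0.49 ± 0.18 (SE, adjusted p = 0.0946) in the mean of both inhibitors and -1.20 ± 0.13 (SE, adjusted p = 1.95e-05) with shEVI1-2532. The myeloid markers *CD33*, *CD34* and *MPO* were detected in every library. From a list of 12 genes of other cell types, the B cell gene *MS4A1* and the epithelial gene *KRT5* had 0 counts in all 16. Not all of the list was absent, since 5 of the 12 passed the filter on low counts in each experiment. The list summed to 47.9 to 222 CPM, of which the endothelial and myeloid gene *PECAM1* gave most.

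Levels between genes were compared as CPM per kilobase of exon in the 6 libraries without inhibitor or shEVI1. *DNMT3B* was the highest, with a median of 44.4 CPM per kb (21.9 to 55.2), followed by *DNMT1* with 20.8 (13.8 to 28.6) and *UHRF1* with 16.3 (9.37 to 22.1). The ranges of these 3 genes overlapped, although their order by this measure was the same in all 6 libraries. *DNMT3B* and *DNMT1* were set apart by the exon length used, 4.63 and 9.80 kb over all annotated transcripts. Without it their medians were 205 and 203 CPM. *TET2* (4.80 CPM per kb, 2.51 to 6.70) and *TET3* (3.99, 2.86 to 7.46) came next and could not be ordered, since *TET2* was the higher of the pair in 4 of 6 libraries. *HELLS* (2.01 CPM per kb, 1.40 to 2.37) was above *DNMT3A* (1.21, 1.06 to 1.57) in 5 of 6 libraries, and *TET1* was the lowest (0.718, 0.484 to 1.02). Among the control libraries, this line thus carried far more *DNMT3B* than *DNMT3A* mRNA, with a ratio per exon kb of 39.2 to 43.7 in the untreated and DMSO libraries and of 20.7 and 21.5 in the NTC libraries. The exon lengths behind this ratio were 4.63 and 12.0 kb, and the median levels were 205 and 14.5 CPM.

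The genes also moved during culture without inhibitor. Against untreated cells, *TET1* was higher in every DMSO library, with 204%, 186% and 185% of the untreated level at 12, 24 and 48 h. *TET3* was lower in each, with 65.7%, 50.1% and 41.7%, and *UHRF1* was at 52.8% and *DNMT1* at 66.5% of it at 48 h. *HELLS* lay between 103% and 119%. From day 3 to day 6 with NTC, *UHRF1* was at 187%, *DNMT3B* at 154%, *DNMT1* at 144% and *TET2* at 77.9% of the day 3 level. These are ratios of single libraries without a test, and all later ratios are to the control of the same hour or day.

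**Figure D1:**
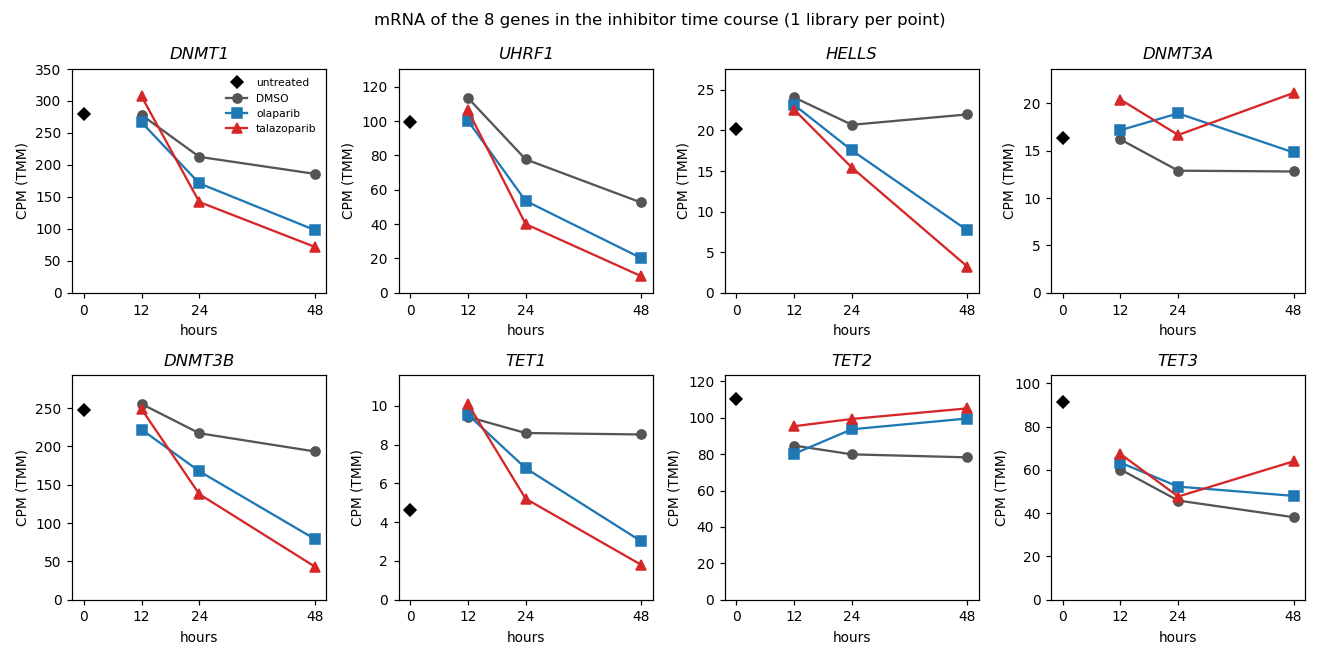
CPM (TMM-scaled, linear axis from 0) of each gene against hours in the PARPi experiment, with 1 library per point: untreated (black), DMSO (gray), olaparib (blue) and talazoparib (red). *DNMT1*, *UHRF1*, *HELLS*, *DNMT3B* and *TET1* stay near DMSO at 12 h and fall away from it by 48 h, whereas *DNMT3A*, *TET2* and *TET3* lie above DMSO at 48 h.

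The first question was how the genes of methylation maintenance behaved under PARPi. All 3 were near DMSO at 12 h, lower at 24 h and lowest at 48 h, and the deeper loss at 24 and 48 h was with talazoparib. *DNMT1* was at 279.7 CPM in untreated cells, at 278, 213 and 186 CPM with DMSO at 12, 24 and 48 h, at 267, 171 and 98.3 CPM with olaparib, and at 307, 142 and 71.9 CPM with talazoparib. At 48 h this was 52.8% of DMSO with olaparib and 38.6% with talazoparib, and the 4 inhibitor libraries of 24 and 48 h lay below all untreated and DMSO libraries. *UHRF1* was at 99.7 CPM in untreated cells, at 113, 77.7 and 52.6 CPM with DMSO at 12, 24 and 48 h, at 100.2, 53.6 and 20.3 CPM with olaparib, and at 106, 40.05 and 9.75 CPM with talazoparib. It was left with 38.5% and 18.5% of DMSO at 48 h. *HELLS* was at 20.2 CPM in untreated cells, at 24.1, 20.7 and 21.98 CPM with DMSO at 12, 24 and 48 h, at 23.2, 17.5 and 7.70 CPM with olaparib, and at 22.6, 15.4 and 3.24 CPM with talazoparib. *UHRF1* with olaparib at 24 h lay above DMSO of 48 h, whereas the 24 and 48 h inhibitor libraries of *HELLS* all lay below every control. At 48 h *HELLS* kept 35.1% of DMSO with olaparib and 14.7% with talazoparib, the lowest share of the 8 genes in that library, with a log2 ratio of -2.76 (95% counting interval -3.01 to -2.52). In bulk RNA, fewer cells that express a gene and less RNA per cell cannot be told apart.

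The de novo enzymes parted. *DNMT3B* was at 247 CPM in untreated cells, at 255, 217 and 194 CPM with DMSO at 12, 24 and 48 h, at 222, 168 and 79.3 CPM with olaparib, and at 249, 138 and 43.3 CPM with talazoparib. *DNMT3B*, the dominant of the pair here, was thus at 40.96% of DMSO with olaparib and at 22.4% with talazoparib at 48 h. *DNMT3A* was at 16.3 CPM in untreated cells, at 16.2, 12.9 and 12.8 CPM with DMSO at 12, 24 and 48 h, at 17.2, 18.9 and 14.8 CPM with olaparib, and at 20.4, 16.7 and 21.1 CPM with talazoparib. *DNMT3A* was above the DMSO library of the same hour in all 6 inhibitor libraries, by log2 ratios of 0.085 to 0.72, and the *DNMT3B* to *DNMT3A* ratio per exon kb came down to 13.9 with olaparib and 5.33 with talazoparib at 48 h.

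Of the TET genes, *TET1* alone fell. *TET1* was at 4.62 CPM in untreated cells, at 9.44, 8.61 and 8.53 CPM with DMSO at 12, 24 and 48 h, at 9.56, 6.79 and 3.02 CPM with olaparib, and at 10.1, 5.22 and 1.81 CPM with talazoparib. *TET1*, the lowest of all, had 35.4% and 21.2% of its DMSO level at 48 h, and both values lay below that of untreated cells. *TET2* was at 110.4 CPM in untreated cells, at 84.7, 79.9 and 78.2 CPM with DMSO at 12, 24 and 48 h, at 80.2, 93.6 and 99.6 CPM with olaparib, and at 95.3, 99.3 and 105 CPM with talazoparib. Its ratio to DMSO was between -0.079 and 0.43 on the log2 scale, and all 6 inhibitor libraries lay within the range of its untreated and DMSO libraries. *TET3* was at 91.6 CPM in untreated cells, at 60.2, 45.9 and 38.2 CPM with DMSO at 12, 24 and 48 h, at 63.3, 52.3 and 48.01 CPM with olaparib, and at 67.4, 47.7 and 63.99 CPM with talazoparib. *TET3* was above DMSO in all 6 libraries, most with talazoparib at 48 h, at 168%, but below its untreated level throughout.

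Averaged over 12, 24 and 48 h, none of the 8 genes passed edgeR's quasi-likelihood test at an adjusted p under 0.05. The mean effect of both inhibitors called 0 of 8, against 4.17% of all genes tested. At an unadjusted p under 0.05 it was 7 of 8 against 35.1% of all genes, and with DESeq2 4 of 8 against 19.97%. Talazoparib called 0 of 8 against 4.0%, with 7 of 8 unadjusted against 36.3% and 5 of 8 with DESeq2 against 21.7%. Olaparib called 0 of 8 against 0.639%, with 0 of 8 unadjusted against 18.3% and 0 of 8 with DESeq2 against 3.90%. The mean log2 fold changes were -0.53 ± 0.21 (SE, adjusted p = 0.114) for *DNMT1*, -0.96 ± 0.30 (SE, adjusted p = 0.0750) for *UHRF1* and -0.88 ± 0.37 (SE, adjusted p = 0.134) for *HELLS*. They were -0.81 ± 0.28 (SE, adjusted p = 0.0894) for *DNMT3B*, -0.80 ± 0.32 (SE, adjusted p = 0.117) for *TET1* and 0.39 ± 0.13 (SE, adjusted p = 0.0876) for *DNMT3A*. Left without the 12 h libraries, both the mean effect and talazoparib called 5 of 8, all lower (*DNMT1*, *UHRF1*, *HELLS*, *DNMT3B* and *TET1*), while 22.6% and 23.7% of all genes were then called. Without the 48 h libraries both called 0 of 8, although 7.45% and 7.11% of all genes were called. Without those of 24 h both called 0 of 8 and 0.0% of all genes.

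The change of the inhibitor effect with time did pass the test. Given as the mean of both inhibitors' slopes per doubling of hours, the log2 change was -1.02 for *HELLS* (adjusted p = 1.47e-12), -0.96 for *TET1* (adjusted p = 2.21e-08), -0.89 for *UHRF1* (adjusted p = 2.88e-11), -0.81 for *DNMT3B* (adjusted p = 8.28e-10) and -0.60 for *DNMT1* (adjusted p = 3.70e-05), by edgeR's joint test of both slopes with 2 residual degrees of freedom. These 5 of 8 genes were called lower, against 8.31% of all genes tested, and 0 of 8 were called higher, against 8.16%. *TET3* (0.20), *TET2* (0.16) and *DNMT3A* (0.12) did not pass, with adjusted p between 0.456 and 0.784. Each inhibitor's slope alone called the same 5 genes, but the share of all genes called was not taken for these separate tests. *DNMT1* with olaparib was close to the threshold (-0.44 ± 0.15 SE, adjusted p = 0.0460). For *HELLS* the slope was -0.73 ± 0.16 (SE, adjusted p = 1.62e-04) with olaparib and -1.31 ± 0.17 (SE, adjusted p = 3.54e-13) with talazoparib. In this fit edgeR gave every gene the spread shared by all genes, so these p-values and SEs hold no spread of the gene itself and are likely too small. With 1 slope for both inhibitors, a fit chosen after the data were seen in which the spread of each gene does count (13.6 prior and 3 residual degrees of freedom), *DNMT1*, *UHRF1*, *HELLS*, *DNMT3B* and *TET1* passed again, with adjusted p of 0.00125 to 0.00481, and 15.6% of all genes were called. These calls depended on 48 h: without those libraries 0 of 8 passed (*UHRF1* -0.60, adjusted p = 0.128), and 3.07% of all genes were called. Without those of 12 h *DNMT1* did not pass (-0.72, adjusted p = 0.139), and 6.87% of all genes were called. Without those of 24 h the adjusted p of the 5 was 0.0283 to 0.0470, and 7.49% of all genes were called. Each of these fits had 1 residual degree of freedom, and the share of all genes called fell in each from 15.6%.

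The compounds were given at different doses, so their values stand side by side and the test of their difference does not compare equal exposure. The log2 difference of talazoparib from olaparib over all times was -0.36 (95% interval -1.33 to 0.62) for *HELLS*, -0.38 (95% interval -1.19 to 0.43) for *UHRF1*, -0.26 (95% interval -1.02 to 0.49) for *DNMT3B* and -0.27 (95% interval -1.12 to 0.58) for *TET1*. None of the 8 genes passed edgeR's test (adjusted p 0.952 to 0.955, 0 at an unadjusted p under 0.05, 0 with DESeq2), nor did any other gene (0.0% called). The intervals hold differences of up to 1.33 on the log2 scale, so like action was not shown.

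**Figure D2:**
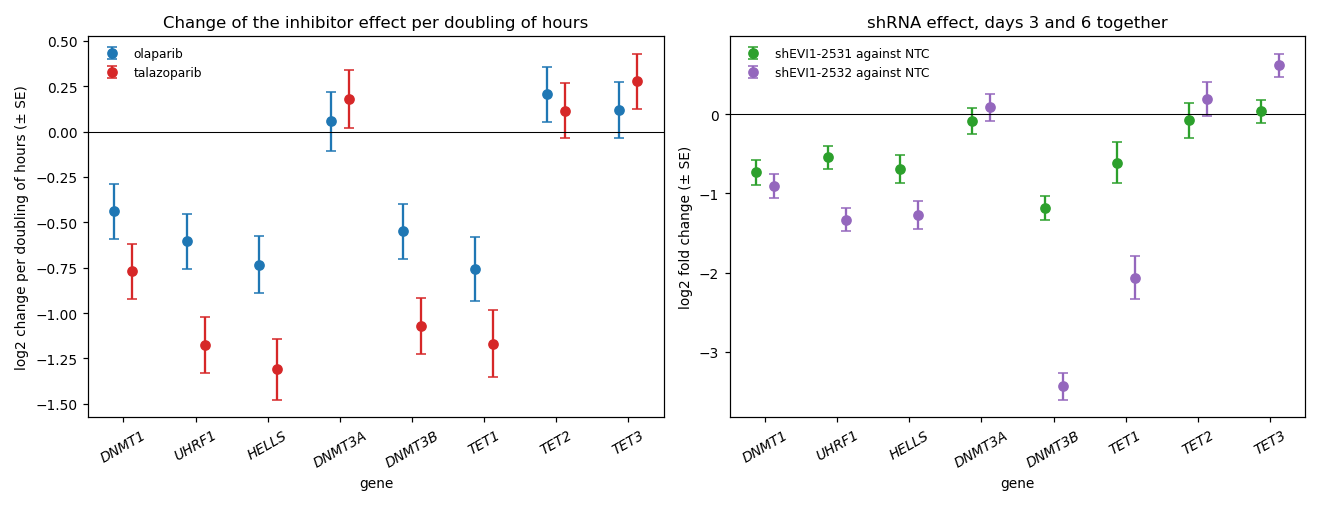
Left, fitted change of each inhibitor's log2 effect per doubling of hours; right, log2 fold change of each shRNA against NTC over day 3 and day 6. Points are edgeR estimates and bars the SE, which for the slopes comes from the spread shared by all genes. The 5 genes that fell with PARPi lie below 0 on both sides, *DNMT3B* with shEVI1-2532 being the lowest at -3.44.

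The second question was how the genes behaved when *EVI1* itself was lowered. *DNMT3B* fell most. Its levels were 102 CPM with NTC, 49.99 with shEVI1-2531 and 11.3 with shEVI1-2532 at day 3, and 157, 61.98 and 12.05 CPM at day 6. That left 49.2% and 39.6% of NTC with shEVI1-2531 and 11.1% and 7.69% with shEVI1-2532, at day 3 and day 6, with no overlap between NTC, shEVI1-2531 and shEVI1-2532. The log2 fold change was -1.19 ± 0.15 (SE, adjusted p = 3.11e-04) with shEVI1-2531 and -3.44 ± 0.17 (SE, adjusted p = 1.29e-07) with shEVI1-2532, and 271 of 18606 genes (1.46%) had a lower value with shEVI1-2532. *DNMT3A*, its paralog, was measured at 12.8 CPM with NTC, 11.5 with shEVI1-2531 and 14.3 with shEVI1-2532 at day 3, and 18.9, 18.6 and 18.96 CPM at day 6. Here the groups overlapped, no shRNA effect passed the test (log2 -0.085 ± 0.17 SE, adjusted p = 0.782 and 0.087 ± 0.17 SE, adjusted p = 0.713), and the *DNMT3B* to *DNMT3A* ratio per exon kb came to 11.3 and 8.66 with shEVI1-2531 and to 2.05 and 1.65 with shEVI1-2532.

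**Figure D3:**
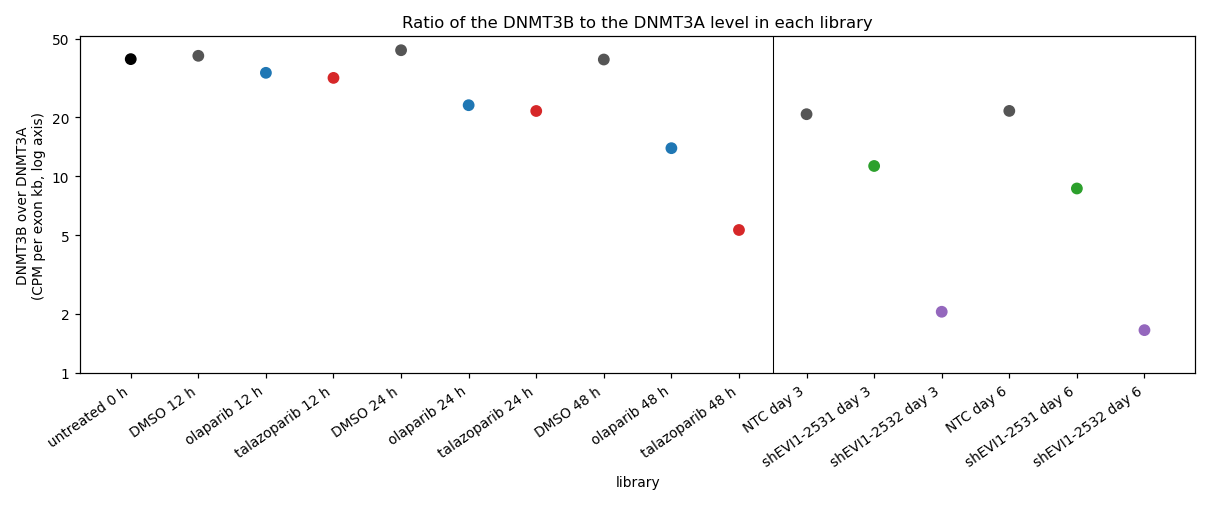
Ratio of *DNMT3B* to *DNMT3A* (CPM per exon kb, log axis) in each of the 16 libraries, PARPi left of the line and knockdown right of it. Controls are black or gray, olaparib blue, talazoparib red, shEVI1-2531 green and shEVI1-2532 purple. The ratio is lowest with shEVI1-2532, at 2.05 and 1.65.

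The maintenance genes fell with both shRNAs. *DNMT1* was at 135 CPM with NTC, 78.6 with shEVI1-2531 and 85.6 with shEVI1-2532 at day 3, and 194, 119.7 and 85.8 CPM at day 6. All 4 shEVI1 libraries lay below both NTC libraries, and the log2 fold changes were -0.73 ± 0.16 (SE, adjusted p = 0.00720) and -0.91 ± 0.16 (SE, adjusted p = 7.02e-04). *UHRF1* was at 48.2 CPM with NTC, 33.5 with shEVI1-2531 and 20.7 with shEVI1-2532 at day 3, and 90.3, 61.1 and 33.2 CPM at day 6, with log2 fold changes of -0.54 ± 0.14 (SE, adjusted p = 0.0210) and -1.33 ± 0.15 (SE, adjusted p = 2.15e-05). *HELLS* was at 14.9 CPM with NTC, 10.05 with shEVI1-2531 and 6.20 with shEVI1-2532 at day 3, and 14.2, 8.01 and 5.84 CPM at day 6, with log2 fold changes of -0.69 ± 0.18 (SE, adjusted p = 0.0185) and -1.27 ± 0.18 (SE, adjusted p = 1.56e-04). Each of the 3 genes was below the NTC library of its day in all 4 shEVI1 libraries, although *UHRF1* with shEVI1-2531 at day 6 lay above NTC of day 3. With shEVI1-2531 these calls depended on single libraries. The share of all genes called also fell without NTC of day 6 or shEVI1-2531 of day 3, but rose without shEVI1-2531 of day 6. Without NTC of day 6, *DNMT1* came to -0.59 (adjusted p = 0.0884), *UHRF1* to -0.45 (adjusted p = 0.153) and *HELLS* to -0.60 (adjusted p = 0.103). *DNMT1* and *UHRF1* also did not pass without shEVI1-2531 of day 3 (-0.57, adjusted p = 0.0695, and -0.51, adjusted p = 0.144), nor *UHRF1* and *HELLS* without shEVI1-2531 of day 6 (-0.56, adjusted p = 0.0521, and -0.55, adjusted p = 0.143).

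**Figure D4:**
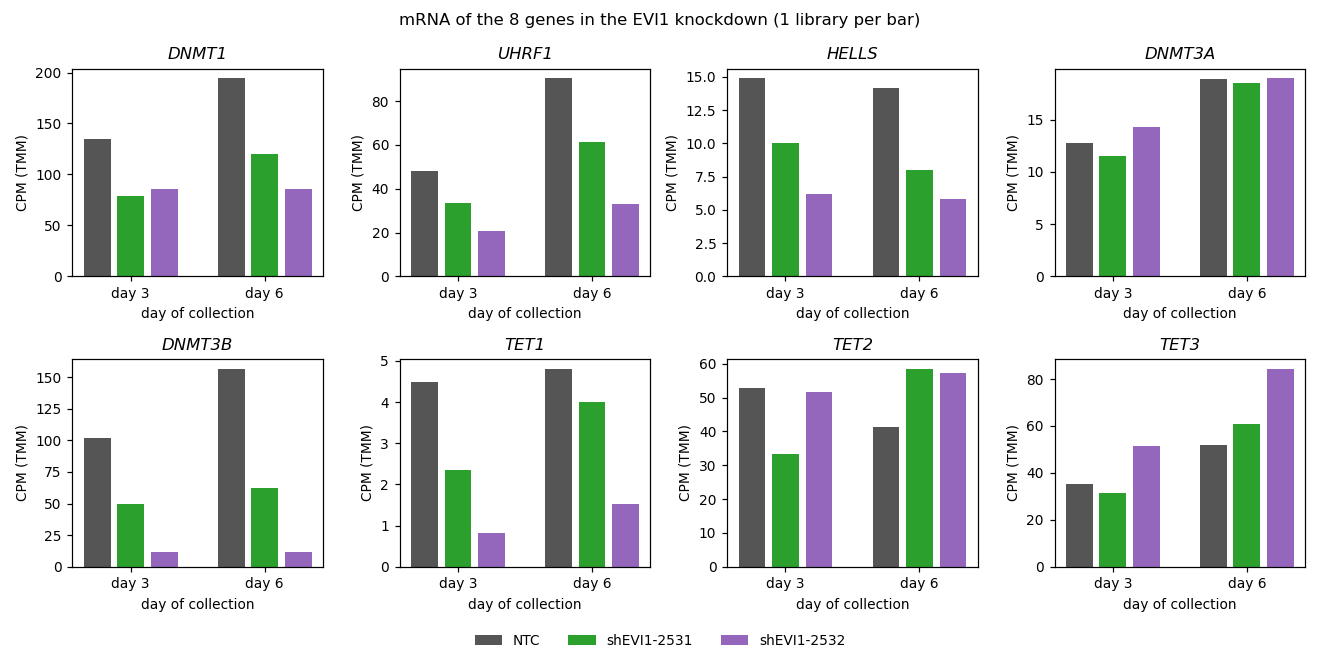
CPM (TMM-scaled, linear axis from 0) of each gene at day 3 and day 6 with NTC (gray), shEVI1-2531 (green) and shEVI1-2532 (purple), with 1 library per bar. *DNMT3B* drops from 102 and 157 CPM with NTC to 11.3 and 12.05 with shEVI1-2532, while *TET3* is highest with shEVI1-2532 on both days.

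Among the TET genes, *TET1* was at 4.50 CPM with NTC, 2.34 with shEVI1-2531 and 0.819 with shEVI1-2532 at day 3, and 4.81, 4.01 and 1.51 CPM at day 6. At day 3 its log2 ratio with shEVI1-2532 was -2.46 (95% counting interval -2.83 to -2.10). The log2 fold change was -2.06 ± 0.27 (SE, adjusted p = 8.79e-05) with shEVI1-2532, and -0.61 ± 0.26 (SE, adjusted p = 0.124) with shEVI1-2531, which did not pass, although all 4 shEVI1 libraries lay below both NTC libraries. *TET3* was at 35.1 CPM with NTC, 31.6 with shEVI1-2531 and 51.4 with shEVI1-2532 at day 3, and 52.1, 60.9 and 84.3 CPM at day 6. It rose with shEVI1-2532, by log2 0.62 ± 0.15 (SE, adjusted p = 0.00502), and had 0.040 ± 0.15 (SE, adjusted p = 0.889) with shEVI1-2531. With shEVI1-2532 it was above NTC of the same day on both days, but at day 3 below NTC of day 6. The rise was not called by library totals (0.32, adjusted p = 0.102) or without NTC of day 6 (0.50, adjusted p = 0.0587). *TET2* was at 52.9 CPM with NTC, 33.3 with shEVI1-2531 and 51.7 with shEVI1-2532 at day 3, and 41.3, 58.5 and 57.4 CPM at day 6, and neither shRNA effect passed (log2 -0.077 ± 0.22 SE, adjusted p = 0.856 and 0.19 ± 0.22 SE, adjusted p = 0.506). With shEVI1-2531 its ratio to NTC had opposite signs at the 2 days, -0.67 at day 3 and 0.50 at day 6, a difference that has no replicate to test it.

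In all, shEVI1-2531 called 4 of 8 genes lower (7.9% of all genes tested) and 0 of 8 higher (9.49%). With shEVI1-2532, 5 of 8 were called lower (19.9%) and 1 of 8 higher (21.2%). DESeq2 called 4 of 8 with shEVI1-2531, against 18.4% of all genes, and 6 of 8 with shEVI1-2532, against 37.8%. The shRNAs differed by edgeR's test in 5 of the 8 genes. Values with shEVI1-2532 were lower for *DNMT3B* (-2.25 ± 0.16 SE, adjusted p = 9.32e-06), *TET1* (-1.45 ± 0.27 SE, adjusted p = 0.00234), *UHRF1* (-0.79 ± 0.14 SE, adjusted p = 0.00212) and *HELLS* (-0.58 ± 0.18 SE, adjusted p = 0.0350), 4 of 8 against 12.0% of all genes. They were higher for *TET3* (0.58 ± 0.15 SE, adjusted p = 0.0131), 1 of 8 against 12.2%. For *DNMT1* the difference was -0.17 ± 0.16 (SE, adjusted p = 0.468). *HELLS* and *TET3* lost this call when shEVI1-2531 of day 3 (-0.45, adjusted p = 0.260, and 0.43, adjusted p = 0.169), shEVI1-2532 of day 3 (-0.52, adjusted p = 0.263, and 0.56, adjusted p = 0.0674) or shEVI1-2532 of day 6 (-0.63, adjusted p = 0.138, and 0.61, adjusted p = 0.0591) was left out, and without shEVI1-2531 of day 6 *TET2* passed as higher (0.73, adjusted p = 0.00630).

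Genes of cell division and of monocytes and granulocytes moved in the same libraries. Of 18 S phase genes other than the 8, 17 were called lower for the change with time under PARPi, 8 with shEVI1-2531 and 17 with shEVI1-2532, and of 14 G2/M genes 13, 10 and 14, against 8.31%, 7.9% and 19.9% of all genes. Their median log2 ratio to the control of the same time was -2.67 (S phase) and -3.36 (G2/M) with talazoparib at 48 h, beside -2.76 for *HELLS*, -2.43 for *UHRF1* and -2.16 for *DNMT3B*. With shEVI1-2532 the S phase median was -1.03 at day 3 and -1.05 at day 6, beside -1.22 and -1.44 for *UHRF1* and -3.17 and -3.70 for *DNMT3B*. The summed S phase level was 3090.0 to 3819 CPM in the untreated and DMSO libraries, 1195 with olaparib and 541 with talazoparib at 48 h, 2445 and 2618 with NTC, 1962 and 1939 with shEVI1-2531 and 1137 and 1185 with shEVI1-2532. Of the monocyte and granulocyte list, 9 of 11 tested genes were called higher for the change with time, and 7 and 9 of 12 with shEVI1-2531 and shEVI1-2532, against 8.16%, 9.49% and 21.2% of all genes. It summed to 1134 to 1475 CPM in the untreated and DMSO libraries, 16794 with talazoparib at 48 h, 1562 and 1138 with NTC and 10087 and 10073 with shEVI1-2532. A list of 6 myeloid progenitor genes, which holds *MECOM*, went both ways. For the change with time 1 was called higher and 4 lower, with shEVI1-2531 3 and 2, and with shEVI1-2532 2 and 3. *MECOM* itself was at 61.7 CPM with DMSO, 23.4 with olaparib and 10.05 with talazoparib at 48 h. In untreated cells it was at 28.3 CPM, so the DMSO library of 48 h was at 218% of the untreated level. The part of these changes in the levels of the 8 genes was not tested.

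**Figure D5:**
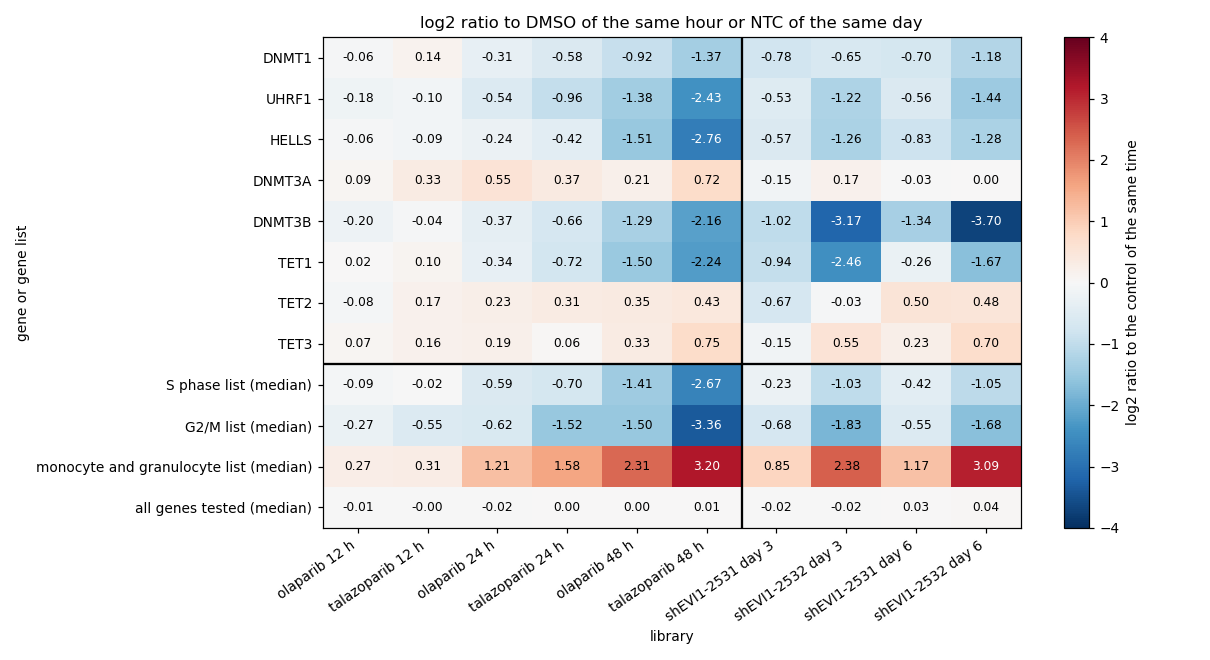
Log2 ratio of each gene (top), and median log2 ratio of the S phase, G2/M and monocyte and granulocyte lists and of all genes tested (bottom), to DMSO of the same hour or NTC of the same day in each library. Blue is lower and red is higher. *DNMT3B* with shEVI1-2532 (-3.17 and -3.70) is below the S phase median of those libraries (-1.03 and -1.05), and *UHRF1* is at -1.22 and -1.44.

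Genes that work with these enzymes were grouped by role. Of 7 partners of maintenance methylation, 5 were called lower for the change with time, 1 with shEVI1-2531 and 6 with shEVI1-2532, and none higher. Over all genes tested the shares called lower were 8.31%, 7.9% and 19.9%, so the 1 of 7 with shEVI1-2531 was near the background. The median log2 fold change was -0.79, -0.41 and -0.78, against -1.01, -0.39 and -1.04 for the S phase list and -0.011, 0.0074 and -0.00031 for all genes. *CDCA7*, which activates HELLS, fell by 1.17 (adjusted p = 1.06e-20) per doubling of hours, and had -1.71 ± 0.14 (SE, adjusted p = 3.28e-06) with shEVI1-2532. *LIG1*, the ligase that joins Okazaki fragments and recruits UHRF1, had -0.94 (adjusted p = 1.07e-11) and -1.02 ± 0.14 (SE, adjusted p = 1.17e-04), and *PCLAF*, a PCNA-binding factor, -0.91 (adjusted p = 2.80e-11) and -1.34 ± 0.19 (SE, adjusted p = 1.37e-04). With shEVI1-2531, *UHRF2*, the paralog of *UHRF1*, was the gene called (-0.78 ± 0.18 SE, adjusted p = 0.0103).

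Of the 4 partners of the de novo enzymes, 3 were tested, with a median of -0.21 for the change with time, -0.51 with shEVI1-2531 and -0.77 with shEVI1-2532, where 1, 1 and 2 were called lower. *QSER1*, which shields DNA from these enzymes, fell with time under PARPi (-0.60, adjusted p = 1.47e-04) and with shEVI1-2532 (-1.57 ± 0.25 SE, adjusted p = 3.39e-04). *SETD2*, whose histone mark is read by DNMT3A and DNMT3B, fell with shEVI1-2531 (-1.07 ± 0.16 SE, adjusted p = 6.99e-04) and shEVI1-2532 (-0.77 ± 0.15 SE, adjusted p = 0.00183). Of 13 tested genes that aid the TET enzymes or remove oxidised bases, 1 was higher and 2 lower for the change with time, 2 and 0 with shEVI1-2531, and 2 and 5 with shEVI1-2532, the medians being 0.054, 0.051 and -0.15. Over all genes 8.16% were higher and 8.31% lower for the change with time, 9.49% and 7.9% with shEVI1-2531, and 21.2% and 19.9% with shEVI1-2532, and the counts in this list were near those shares apart from the 5 of 13 lower with shEVI1-2532. *WT1*, which binds TET2, fell with time (-0.69, adjusted p = 1.82e-06) and with shEVI1-2532 (-0.86 ± 0.17 SE, adjusted p = 0.00185). *IDH1* and *IDH2*, which make the TET cofactor 2-oxoglutarate in the cytosol and in mitochondria, went opposite ways, with 0.44 (adjusted p = 0.0245) and -0.39 (adjusted p = 0.0228) per doubling of hours and 1.12 ± 0.13 (SE, adjusted p = 3.56e-05) and -0.87 ± 0.14 (SE, adjusted p = 4.12e-04) with shEVI1-2532. The glycosylase gene *NEIL1* fell with shEVI1-2532 (-1.04 ± 0.33 SE, adjusted p = 0.0236). *GADD45A*, a stress gene linked to demethylation, was already higher in the mean over all times, by 1.04 ± 0.13 (SE, adjusted p = 0.0142), and rose with shEVI1-2531 (0.72 ± 0.16 SE, adjusted p = 0.00921) and shEVI1-2532 (0.88 ± 0.16 SE, adjusted p = 0.00102).

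Of 6 genes of the methyl donor cycle, 1 was called lower for the change with time, 0 with shEVI1-2531 and 1 with shEVI1-2532 (medians -0.063, -0.10 and -0.046). Over all genes 8.31%, 7.9% and 19.9% were called lower, so these counts were near the background. *MAT2A*, which makes S-adenosylmethionine, was lower in the mean over both inhibitors (-0.51 ± 0.090 SE, adjusted p = 0.0341). *MTR*, the methionine synthase gene, fell with time (-0.40, adjusted p = 0.0417) and with shEVI1-2532 (-1.08 ± 0.17 SE, adjusted p = 3.03e-04). Of 7 readers of methylated CpG, 0 were called for the change with time or with shEVI1-2531, and *ZBTB4* (1.14 ± 0.14 SE, adjusted p = 6.12e-05) and *MBD2* (0.43 ± 0.15 SE, adjusted p = 0.0375) rose with shEVI1-2532 (list medians -0.11, 0.18 and 0.33). These 2 of 7 were also near the background, since 21.2% of all genes were called higher with shEVI1-2532. The 15 germline genes whose promoters are known to be silenced by methylation in somatic cells, among them *DAZL*, *MAEL* and *MAGEA1*, were at or near 0: none passed the filter on low counts, and their summed level lay between 0.0145 and 0.147 CPM over all 16 libraries. At 48 h it was 0.147 CPM with talazoparib and 0.107 with DMSO. At day 3 and day 6 it was 0.103 and 0.116 CPM with NTC and 0.102 and 0.0533 CPM with shEVI1-2532. Methylation of DNA was not measured in these libraries.

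As a description, genes with a pattern like that of each member were found by the root mean square difference of log2 ratios over the 10 treated libraries. The search covered 8627 genes with a mean of at least 8 CPM in both experiments. It left out the 8 members and all genes of the lists, such as the S phase genes, so nearer genes among those would not appear. For *UHRF1* the nearest genes of this search were *NSD2* (0.13), *TIMELESS* (0.14) and *ORC1* (0.15), for *HELLS* *CHAF1B* (0.18), *RMI2* (0.19) and *DTL* (0.20) and for *TET1* *WDHD1* (0.20), *WDR90* (0.26) and *CHTF18* (0.28). For *DNMT1* they were *APPL2* (0.12), *IL27RA* (0.14) and *SECISBP2* (0.15). *DNMT3B* had no gene as near as the others had, with *CALCRL* (0.38), *SHANK3* (0.39) and *BCL11A* (0.44). For *DNMT3A* they were *ST3GAL1* (0.10), *HERC2* (0.13) and *TLN1* (0.13), for *TET2* *STK4* (0.16), *PHC3* (0.16) and *AFF4* (0.16) and for *TET3* *CBX6* (0.098), *EXOC7* (0.11) and *GIT2* (0.12). All 10 ratios share the control libraries of their time. The distance is an absolute difference that can grow with the size of the ratios, so it does not compare members whose ratios differ in size. With shEVI1-2532, the ratios of *DNMT3B* were the furthest from 0 of the 8 genes, at -3.17 and -3.70.

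Reads can be shared with overlapping genes. *DNMT1* shares 9854 bases with *S1PR2*, which had 287 to 1211 counts per library, and *HELLS* shares 34899 bases with *TBC1D12*, which had 0 to 20, both on the same strand. Other genes that overlap a member had at most 10 counts in any library. How reads in the shared bases were assigned is not given in the sources used here.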

How the data were processed

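RNA was extracted from MUTZ-3 cells, and libraries were made with a stranded mRNA kit and sequenced in pairs of reads. The submitters' processing notes name STAR, Picard, featureCounts and GRCh38 (hg38). Versions, annotation and strand setting are not given in the sources used here. The authors deposited raw counts per gene, and TPM, which the authors computed over the whole gene span including introns, as was checked on the values. TPM were not used further, since intron length would distort comparisons between genes. All values come from the counts. Sample identity rests on the labels, because the files of shEVI1-2531 carry another number in their names.

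Genes that reached 10 counts in 3 of the 9 treated or DMSO libraries, or in 2 of the 6 knockdown libraries, were fitted with edgeR 4.0.16 (R 4.3.3; TMM, quasi-likelihood test), with hours or day as a factor. There were 4 residual degrees of freedom for inhibitors, 2 for slopes on log2 hours and 2 for shRNAs. The prior degrees of freedom, which give the weight of the spread shared by all genes, were 4.23, infinite and 10.1. For slopes the spread was thus only the shared one, and for shRNAs mostly so. P-values were adjusted after Benjamini-Hochberg over all genes, with a threshold of 0.05. DESeq2 1.42.0, other scalings, filters, designs and left-out libraries were alternatives. Tests were checked on simulated data in which every gene had the same spread. This check thus cannot show whether p-values that rest on the shared spread are too small. The untreated library entered ratios only. Confidence intervals at 95% and floors of 3 counts cover counting error only. Exon lengths came from GENCODE, and 46586 of 60623 genes had the same coordinates there. Promoter windows were taken from RefSeq. Figures were drawn with matplotlib 3.10.9.

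The members and lists were chosen with earlier results of these data known. The genes named are the 8 members, *MECOM*, *PARP1*, and from each list up to 3 per direction with the largest change among those called in a comparison, or up to 2 with the smallest p where none was called, and the 3 genes outside the lists that were nearest to each member. Of these, examples are given.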

Additional observations from a re-analysis of the deposited data

Results flagged for a closer look

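The effects of the 2 shRNAs on the same contrast with NTC differed for 5 genes by edgeR's test of the difference. With shEVI1-2532 against shEVI1-2531 the log2 difference was -2.25 for *DNMT3B*, -1.45 for *TET1*, -0.79 for *UHRF1*, -0.58 for *HELLS* and 0.58 for *TET3*. Beside them, *MECOM* differed by -1.70, the median of the S phase list by -0.78 and that of the monocyte and granulocyte list by 1.56. The calls of *HELLS* and *TET3* depended on single libraries, as given above.

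The inhibitor effect differed between time points for 5 of the 8 genes by the joint test of both slopes, all called lower. Over all genes tested, 8.31% were called lower and 8.16% higher. The mean log2 change per doubling of hours was -1.02 for *HELLS*, -0.96 for *TET1*, -0.89 for *UHRF1*, -0.81 for *DNMT3B* and -0.60 for *DNMT1*. The spread in this test was that shared by all genes, and with 1 slope for both inhibitors the adjusted p of the 5 genes was 0.00125 to 0.00481. *MECOM* had -0.94, and the medians of the S phase and the G2/M lists were -1.01 and -1.11. No group had 4 samples, so single libraries could not be tested as outliers.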

How the results depend on the processing

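Of 696 fold changes of the 8 genes under the alternatives, 624 stayed on the same side of the threshold, 30 passed it anew and 42 lost it. No call of a fold change turned its sign, and 16 values differed in sign where neither fit called them. RLE factors left every count of genes called as it was. The mean effect of both inhibitors and that of talazoparib called 0 genes, but 5 and 5 with no filter on low counts, 5 and 5 without the 12 h libraries, and 4 and 5 with DESeq2. The share of all genes called rose as well, from 4.17% and 4.0% to 11.2% and 11.6%, 22.6% and 23.7%, and 19.97% and 21.7%. Without the 48 h libraries both effects still called 0 of the 8, while 7.45% and 7.11% of all genes were called. They also called 0 without those of 24 h, where 0.0% of all genes were called. The change with time called 5, and 0 with 1 slope for both inhibitors and no 48 h libraries, where 1 residual degree of freedom was left and the spread was again that shared by all genes. The share of all genes called was then 3.07%, against 15.6% with 1 slope and all time points. With 1 library left out in turn, the 4 calls with shEVI1-2531 became 1 to 4, the 6 with shEVI1-2532 became 5 to 6, and the 5 between the shRNAs became 3 to 6. Here a condition left with 1 library is taken to vary like the others. The share of all genes called moved with the library left out as well, down in some of these fits and up in others. Whether the 8 genes lost more calls than other genes in these fits was not tested. With no day in the model, 0 were called with shEVI1-2531 and 1 between the shRNAs, and with both shRNAs as 1 group 0 were called for either. The share of all genes called fell too, to 3.04%, 4.95% and 1.66%. The cause of these changes was not tested. Libraries were matched by hour or day in the model, and the labels give no replicate numbers for any other pairing.

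Ratios of single libraries moved beyond their counting interval or turned in 45 of 80 cases by library totals and in 26 of 48 with another control. Against the mean of the 3 DMSO libraries, the log2 ratio at 12 h turned to 0.24 for *DNMT1* and 0.30 for *UHRF1* with olaparib, and to 0.39 for *UHRF1* and 0.16 for *DNMT3B* with talazoparib. *TET3* with olaparib at 48 h became -0.0017. By library totals, *DNMT3A* with shEVI1-2532 at day 3 became -0.088. Depth limits little here, since the smallest count of a member was 72.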
